A study of Mus musculus with 4 samples.

Results

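The genes described here are 55 genes of DNA replication and mitosis, chosen by name, as the rows of a raw count table of 24391 gene symbols that carry those names. They fall into 26 genes of replication and entry into S phase and 29 genes of mitosis, and the groups were read apart. RNA-seq was performed on primary MEFs, fibroblasts grown from E13.5 mouse embryos, as 2 WT and 2 Phf2 KO libraries that the labels number as replicates 1 and 2. All 4 libraries were labelled Phf2 flox/flox, ERCre/+. The Phf2 KO libraries alone were labelled with tamoxifen, and no library had tamoxifen without the floxed alleles and Cre, so loss of Phf2 and exposure to the drug cannot be told apart. CreERT2, a Cre recombinase that 4-hydroxytamoxifen (4-OHT) switches on, came from the Rosa26 locus. By the methods, MEFs were grown until confluent and held in quiescence, and for the deletion this was in Opti-MEM with 2% charcoal-treated serum and 0.5 µM 4-OHT for 7 days. The same protocol text stands with all 4 libraries, and which medium or vehicle the WT cells had is not given by name. The study calls the replicates biological. Each group holds 1 female and 1 male library by the sex-linked genes given below, so its libraries did not come from the same embryo. The p-values of the test on genotype alone measure the spread between them.

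Cells leave quiescence by making the machinery for copying DNA. The proteins Orc1, Cdc6 and Cdt1 load the MCM helicase onto origins, Cdc45 and the GINS complex turn it on, and polymerases with the Pcna clamp copy the strands from nucleotides that ribonucleotide reductase supplies. Genes for these steps are known targets of E2F factors and are switched on towards S phase. Mitosis genes are switched on later, through the CHR promoter element and the factors B-Myb and FoxM1, and their products drive condensation, spindle assembly, chromosome segregation and cell division. In resting cells both groups are known to be held down. No library of cycling MEFs was at hand, so how far the levels in quiescent MEFs are residual was not measured.

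The libraries held between 21094743 and 26094268 counts. Phf2, the gene deleted, had 3244 and 3680 counts in WT replicates 1 and 2. The counts in Phf2 KO replicates 1 and 2 were 1454 and 2158, so both Phf2 KO libraries lay below both WT libraries with reads remaining. Reads from exons outside the deleted part would still be counted, but the source of the remaining reads was not tested. Xist, a transcript of the silenced X, had 10042 and 8336 counts in WT and Phf2 KO replicate 1 but 3 and 12 counts in replicate 2, and Y-linked Ddx3y had 6 and 10 counts in replicate 1 but 1271 and 1295 counts in replicate 2. In both groups the cells of replicate 1 were therefore female and those of replicate 2 male. All 13 fibroblast markers passed the filter on low counts, at a median of 905 RPKM (CPM, the count scaled to a common library size, divided by transcript length in kilobases). Macrophage markers were present as well and differed strongly between replicates 1 and 2, and their values stand beside the results they move with.

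Promoter sequence was read first. The genes were chosen by name and not by sequence, but such genes are known targets of E2F or CHR, as given above. A high share of these letters in them is therefore not independent of the choice. A RefSeq window of 250 bases before to 50 bases after the start, on GRCm38.p6, was at hand for 44 of the 55 genes, 21 of replication and 23 of mitosis. The letters searched, on both strands, were those of E2F, either TTCCCGC or the variant TTGGCGC or the variant TTCGCGC, those of CHR, either TTTGAA or the variant TTCGAA, and CCAAT for NF-Y, an activator that often neighbours CHR. The reverse of the NF-Y letters, ATTGG, can share bases with an E2F match. A gene with more than 1 start can have more than 1 window, as Mcm7, E2f2 and Prc1 did among the 44 and 15.4% of all genes did, and it was counted where any of its windows held the letters. E2F letters were found in 12 of 21 replication genes (57.1%), 6 of 23 mitosis genes (26.1%) and 9.20% of all 27025 genes with a window. CHR letters were found in 5 of 21 replication genes (23.8%), 17 of 23 mitosis genes (73.9%) and 21.7% of all genes. NF-Y letters were found in 66.7%, 82.6% and 41.1% of these genes. Of all 32851 windows taken singly, 8.07% held E2F, 19.2% CHR and 37.4% NF-Y letters. E2F letters were thus commoner in the replication genes and CHR letters in the mitosis genes, as a description with no test. Both E2F and CHR letters stood in the same window in 2 replication genes, Mcm7 and Rfc3, and in 4 mitosis genes, Cdk1, Mki67, Ncapd2 and Ncapg, beside 1.14% of all genes. No window was at hand for Ccne2, Gins1, Gins2, Mcm4, Pole, Aurkb, Ccna2, Foxm1, Kif20a, Smc4 and Tpx2. A match of letters is a description and not a site of binding.

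**Figure D1:**
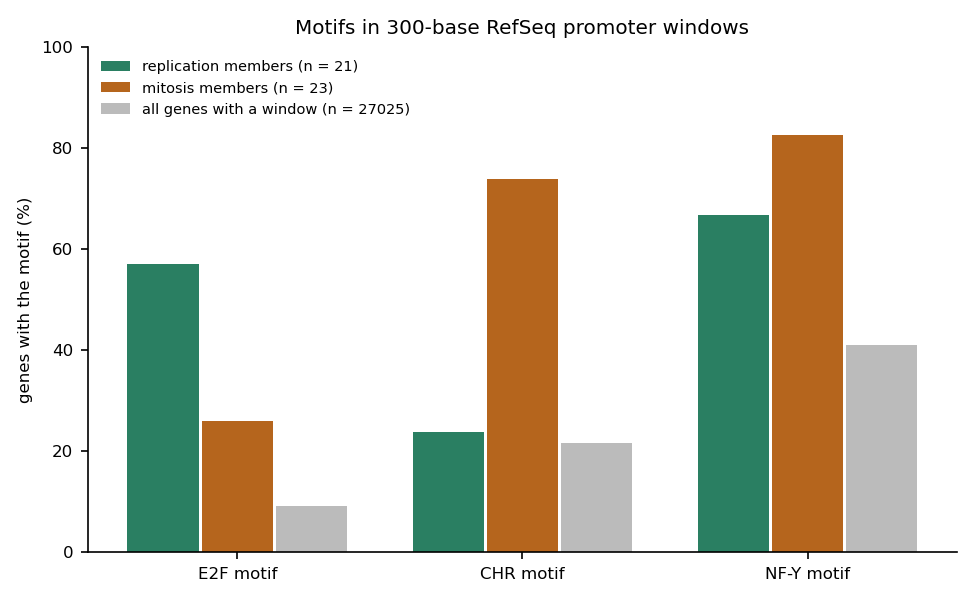
Share of genes (%, y axis) with E2F, CHR or NF-Y letters in any of their 300-base promoter windows, for 21 replication genes, 23 mitosis genes and all 27025 genes with a window. E2F letters are commonest in the replication genes (57.1%) and CHR letters in the mitosis genes (73.9%).

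Promoters of 5 genes are printed because the results turn on these genes, with E2F, CHR and NF-Y letters in capitals. Mcm2 (chr6:88898781-88899030, reverse strand), Mcm6 (chr1:128359706-128359955, reverse strand) and Rrm1 (chr7:102441445-102441694, forward strand) are replication genes that edgeR called lower in Phf2 KO with the replicate number as a term of the fit, where DESeq2 with the same terms called none. Mki67 (chr7:135716380-135716629, reverse strand) and Bub1b (chr2:118597961-118598210, forward strand) are the mitosis genes that differed most clearly between replicates 1 and 2. Each run is the 250 bases before the RefSeq start on GRCm38.p6, 5′ to 3′ on the strand of the gene.
Mcm2: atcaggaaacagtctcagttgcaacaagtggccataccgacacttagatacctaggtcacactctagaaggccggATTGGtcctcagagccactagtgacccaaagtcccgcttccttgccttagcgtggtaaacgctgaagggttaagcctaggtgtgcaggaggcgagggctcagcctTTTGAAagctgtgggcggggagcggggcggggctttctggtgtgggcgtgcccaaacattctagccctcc
Mcm6: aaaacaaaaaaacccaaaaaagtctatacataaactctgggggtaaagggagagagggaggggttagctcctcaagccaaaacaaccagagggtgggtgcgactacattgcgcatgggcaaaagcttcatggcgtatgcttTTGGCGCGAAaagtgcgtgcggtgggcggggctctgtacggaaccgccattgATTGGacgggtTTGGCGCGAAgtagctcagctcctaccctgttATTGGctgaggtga
Rrm1: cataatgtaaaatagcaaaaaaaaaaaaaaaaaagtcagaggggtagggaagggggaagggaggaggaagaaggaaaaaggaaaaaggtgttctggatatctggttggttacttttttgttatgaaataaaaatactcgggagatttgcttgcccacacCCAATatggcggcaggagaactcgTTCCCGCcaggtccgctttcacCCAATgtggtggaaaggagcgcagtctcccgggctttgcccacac
Mki67: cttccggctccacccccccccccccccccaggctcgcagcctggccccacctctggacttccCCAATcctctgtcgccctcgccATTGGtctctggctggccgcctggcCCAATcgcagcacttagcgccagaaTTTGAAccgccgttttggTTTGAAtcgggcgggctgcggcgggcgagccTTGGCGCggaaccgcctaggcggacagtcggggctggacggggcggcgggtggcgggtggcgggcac
Bub1b: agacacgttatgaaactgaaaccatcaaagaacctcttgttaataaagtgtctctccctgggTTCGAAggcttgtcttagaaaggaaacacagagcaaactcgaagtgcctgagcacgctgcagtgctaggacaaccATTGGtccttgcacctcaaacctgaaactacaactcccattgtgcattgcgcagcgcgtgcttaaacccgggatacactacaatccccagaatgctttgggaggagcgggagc
The Mcm6 run holds TTGGCGC joined to the reverse of TTCGCGC at -109 and again at -46 bases from the start. The Rrm1 run holds TTCCCGC at -67 bases between a pair of CCAAT boxes. The Mcm2 run holds no E2F letters of those searched, and has CHR letters at -70 bases. In Mki67, CHR letters at -116 and -98 bases precede TTGGCGC at -67 bases. The Bub1b run holds CHR letters at -188 bases and ATTGG at -113 bases, and past the run its window has CHR letters at 40 bases after the start.

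All 55 genes were detected in all 4 libraries and passed the filter, which kept 13668 genes. None was at or under 3 counts in any library, a limit worth 0.116 to 0.145 CPM that covers counting error only. Levels between genes were compared as RPKM over the longest coding transcript. The replication genes had a median of 4.07 RPKM, from 0.281 RPKM for E2f2 to 30.7 RPKM for Pcna, and the mitosis genes a median of 2.70 RPKM, from 0.249 RPKM for Ccnb1 to 6.58 RPKM for Ncapd2. The median of all genes tested with a length was 7.55 RPKM. Below it stood 18 of 26 replication genes and 29 of 29 mitosis genes. Over 10 RPKM stood 6 replication genes and 0 mitosis genes, and under 1 RPKM 6 and 7. In a bulk sample, fewer cycling cells and less RNA in each cell cannot be told apart.

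**Figure D2:**
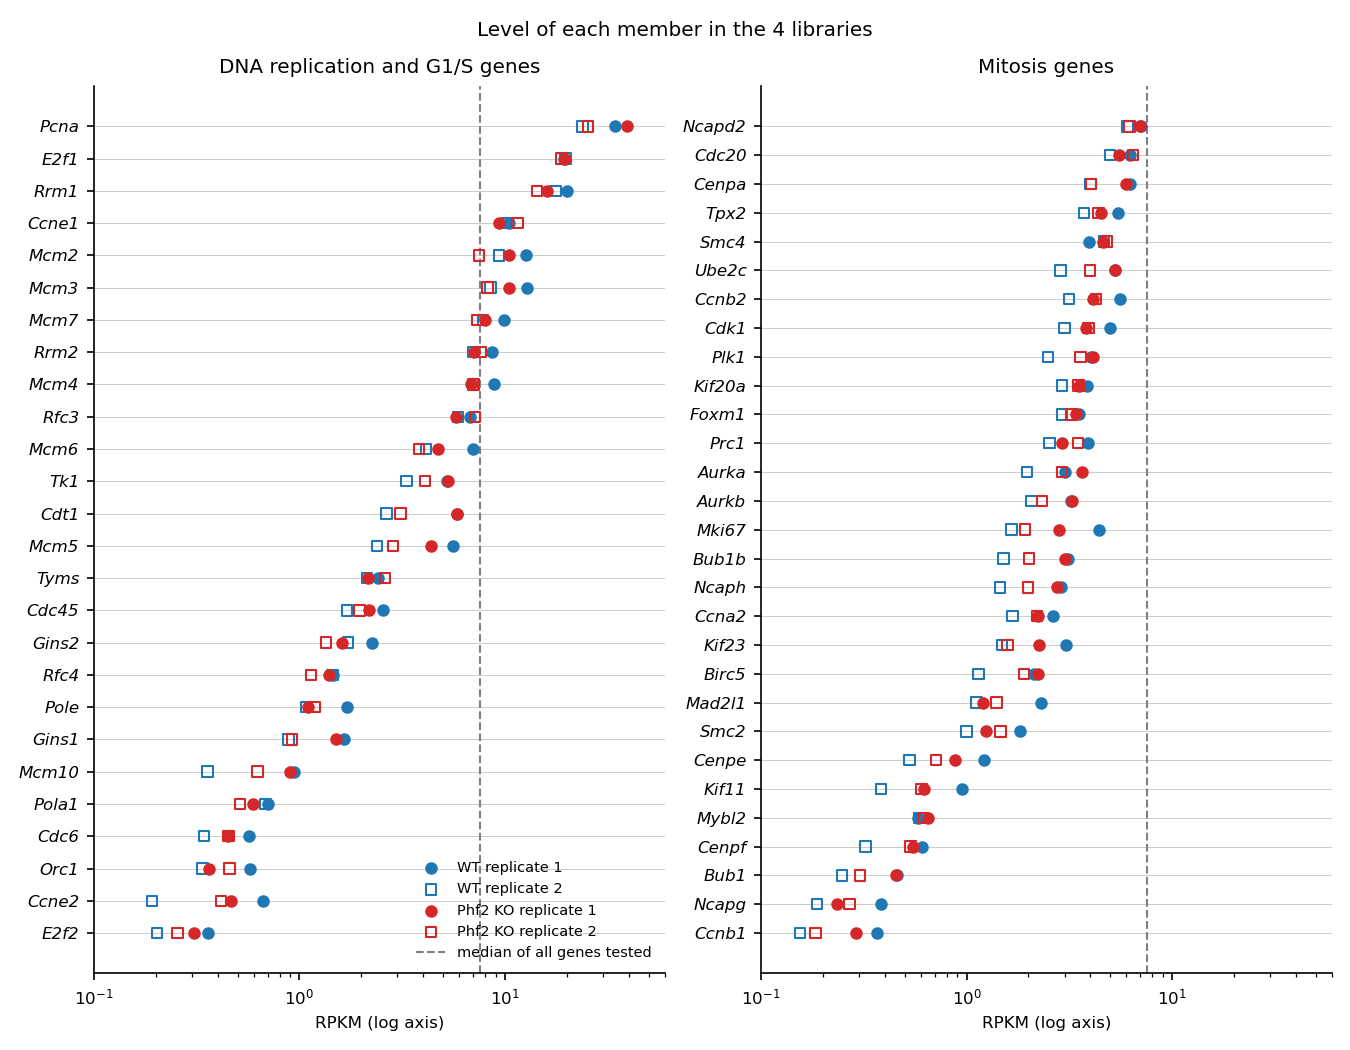
Level of each gene (RPKM, log axis) in the 4 libraries, with replication genes left and mitosis genes right, ordered by mean level. Points are single libraries and the dashed line is the median of all genes tested (7.55 RPKM), which no mitosis gene reaches on average, while WT replicate 2 (open blue squares) is lowest for 27 of 29 mitosis genes.

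Among the replication genes, Pcna, the sliding clamp of the polymerases, was the most abundant, at 34.4 and 23.8 RPKM in WT replicates 1 and 2, against 39.1 and 25.4 RPKM in Phf2 KO replicates 1 and 2. Both replicates 1 were above both replicates 2, and WT and Phf2 KO overlapped. E2f1, a transcription factor of G1/S genes, was at 19.5 and 19.7 RPKM in WT against 19.6 and 18.8 RPKM in Phf2 KO, the narrowest spread of the abundant members. Rrm1, the large subunit of ribonucleotide reductase, was at 20.1 and 17.6 RPKM in WT against 16.0 and 14.3 RPKM in Phf2 KO, with both Phf2 KO libraries below both WT libraries. Ccne1, cyclin E1, which starts S phase with Cdk2, was at 10.5 and 10.3 RPKM in WT against 9.34 and 11.5 RPKM in Phf2 KO, and WT lay between the Phf2 KO libraries. The helicase subunit Mcm2 was at 12.7 and 9.35 RPKM in WT against 10.5 and 7.47 RPKM in Phf2 KO, and Mcm3 at 12.9 and 8.52 RPKM in WT against 10.4 and 8.22 RPKM in Phf2 KO. In Mcm2 the lowest library was Phf2 KO replicate 2 and the highest WT replicate 1, and the groups overlapped in both genes. The 6 subunits of the helicase had a median of 7.85 RPKM, close to the median of all genes, and ranged from 3.79 RPKM for Mcm5 to 10.0 RPKM for Mcm2 and Mcm3.

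Apart from Cdt1, the factors that load and start the helicase were far lower. The 3 licensing factors had a median of 0.452 RPKM, set by Cdc6, with Orc1 just under it at 0.434 RPKM and Cdt1 well above at 4.36 RPKM. The 4 genes of helicase activation (Cdc45, Gins1, Gins2, Mcm10) had a median of 1.49 RPKM. The polymerases Pole and Pola1 were at means of 1.27 and 0.625 RPKM, and the clamp loader subunits Rfc3 and Rfc4 at 6.40 and 1.36 RPKM. In nucleotide synthesis, Rrm2 and thymidine kinase Tk1 stood at means of 7.57 and 4.47 RPKM and thymidylate synthase Tyms at 2.32 RPKM. Ccne2, cyclin E2, rested on 48, 15, 29 and 30 counts in WT replicate 1, WT replicate 2, Phf2 KO replicate 1 and Phf2 KO replicate 2, the lowest counts of the replication genes.

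Among the mitosis genes, the condensin subunit Ncapd2 was the most abundant, at 7.05 and 6.08 RPKM in WT replicates 1 and 2, against 6.99 and 6.22 RPKM in Phf2 KO replicates 1 and 2. The groups overlapped and both replicates 1 were above both replicates 2. Cdc20, the activator of the anaphase-promoting complex, was at 6.25 and 4.99 RPKM in WT against 5.54 and 6.47 RPKM in Phf2 KO, with WT replicate 2 lowest. Cenpa, the histone variant of centromeres, was at 6.22 and 4.01 RPKM in WT against 5.95 and 4.02 RPKM in Phf2 KO, and Tpx2, a spindle assembly factor, at 5.47 and 3.72 RPKM in WT against 4.52 and 4.39 RPKM in Phf2 KO. For Cenpa the replicates 2 lay together under the replicates 1, and for Tpx2 the WT libraries enclosed the Phf2 KO libraries. Smc4, the other condensin gene among the highest, was at 3.93 and 4.68 RPKM in WT against 4.63 and 4.81 RPKM in Phf2 KO, and it alone of these 6 had its lowest value in WT replicate 1. Ube2c, an enzyme of the anaphase-promoting complex, was at 5.28 and 2.87 RPKM in WT against 5.26 and 3.99 RPKM in Phf2 KO, lowest in WT replicate 2. The mitotic cyclins were lower, with Ccnb2 at a mean of 4.28, Ccna2 at 2.19 and Ccnb1 at 0.249 RPKM, beside 3.93 RPKM for their kinase Cdk1. Ccnb1 rested on 22 and 10 counts in WT against 15 and 11 counts in Phf2 KO, the lowest of all 55 genes.

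By role, the centromere and kinetochore genes (Cenpa, Cenpe, Cenpf) had a median of 0.831 RPKM, the spindle checkpoint genes (Bub1, Bub1b, Mad2l1) 1.51 RPKM and the condensin subunits 2.27 RPKM. The spindle motors and microtubule binding genes (Kif11, Kif20a, Kif23, Prc1, Tpx2) had a median of 3.21 RPKM, and the mitotic kinases with Birc5, the survivin subunit of the chromosomal passenger complex, 2.80 RPKM. Mki67, the antigen scored as Ki-67 in cycling cells, stood at a mean of 2.70 RPKM. The late transcription factors Foxm1 and Mybl2, which codes for B-Myb, stood at 3.28 and 0.608 RPKM. Exons of Gins2, Rfc4, Mcm7, Cdc20, Ube2c, Kif20a and Ccna2, among others, overlap a gene on the other strand, and the methods give reverse stranded for the alignment but not whether the counting used strand. Pcna and Ccnb2 have annotated pseudogenes, so their levels are uncertain to that extent.

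Whether loss of Phf2 changed these genes was asked with edgeR's quasi-likelihood test on genotype. No gene of either group was called at an adjusted p under 0.1, where 1 of all 13668 genes was called lower (0.00732%) and 0 higher. The lowest adjusted p among the 55 genes was 0.999. Phf2 itself, the gene deleted, was not called either, at -0.79 ± 0.14 (SE) in log2 fold change and an edgeR adjusted p of 0.999. With the replicate number as a term of the fit it was called, at -0.80 ± 0.08 (SE) and an edgeR adjusted p of 7.67e-19. Lack of a call in the genotype fit therefore does not show that a gene was unchanged. At an unadjusted p under 0.05 edgeR, DESeq2 and limma each had 1 replication gene and 0 mitosis genes, which in edgeR was Rrm1, while 2.67% of all genes were lower and 1.54% higher at that level. Log2 fold changes of Phf2 KO over WT were negative in 18 and positive in 8 of 26 replication genes, with a median of -0.07. They were positive in 16 and negative in 13 of 29 mitosis genes, with a median of 0.03, beside 0.01 for all genes. The 95% intervals of single genes reached 0.69 on either side of the estimate at the median of the replication genes and 0.84 at that of the mitosis genes.

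The replication genes with the largest changes were all lower. Gins2, a subunit of the GINS complex, was at 2.27 and 1.72 RPKM in WT against 1.61 and 1.34 RPKM in Phf2 KO, a log2 fold change of -0.43 ± 0.22 (SE). Mcm6 was at 6.98 and 4.14 RPKM in WT against 4.73 and 3.83 RPKM in Phf2 KO, a log2 fold change of -0.38 ± 0.29 (SE), and its high WT replicate 1 stood apart from the other 3 libraries. Pola1, the catalytic subunit of the polymerase that primes synthesis, was at 0.706 and 0.685 RPKM in WT against 0.596 and 0.514 RPKM in Phf2 KO, a log2 fold change of -0.33 ± 0.21 (SE). For Rrm1 the log2 fold change was -0.32 ± 0.11 (SE), with a 95% interval of -0.61 to -0.02, and for Mcm2 it was -0.30 ± 0.24 (SE), with an interval of -0.92 to 0.33. Both Phf2 KO libraries lay below both WT libraries in 4 of 26 replication genes (Rrm1, Gins2, Pola1 and Rfc4), beside 18.0% of all genes, and above them in 0, beside 15.5%. All 6 helicase subunits had a negative log2 fold change, from -0.15 ± 0.46 (SE) for Mcm5 to that of Mcm6. Without WT replicate 1, 4 of the 6 were positive (Mcm5 at 0.60, Mcm3 at 0.14, Mcm6 at 0.06 and Mcm4 at 0.0067), and without Phf2 KO replicate 2, 1 of the 6 was. Mcm10, which acts when the helicase is started, had the highest value of the replication genes, 0.24 ± 0.52 (SE).

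The mitosis genes moved both ways. Aurka, the kinase of centrosomes and spindle poles, was at 3.03 and 1.96 RPKM in WT against 3.65 and 2.90 RPKM in Phf2 KO, a log2 fold change of 0.39 ± 0.28 (SE). Birc5 was at 2.13 and 1.14 RPKM in WT against 2.23 and 1.91 RPKM in Phf2 KO, a log2 fold change of 0.34 ± 0.34 (SE), and Plk1, a kinase of mitotic entry, at 4.03 and 2.48 RPKM in WT against 4.14 and 3.59 RPKM in Phf2 KO, 0.25 ± 0.28 (SE). In these 3 genes WT replicate 2 was the lowest library and WT replicate 1 lay between the Phf2 KO libraries. Mad2l1, a checkpoint protein, was at 2.31 and 1.12 RPKM in WT against 1.20 and 1.40 RPKM in Phf2 KO, a log2 fold change of -0.39 ± 0.41 (SE). Mki67 was at 4.41 and 1.65 RPKM in WT against 2.80 and 1.92 RPKM in Phf2 KO, a log2 fold change of -0.36 ± 0.50 (SE). In Mad2l1 and Mki67 the WT libraries enclosed both Phf2 KO libraries. The Phf2 KO libraries lay below both WT libraries in 0 of 29 mitosis genes, beside 18.0% of all genes, and above them in 1, beside 15.5%. The 1 gene was Mybl2, at 0.580 and 0.591 RPKM in WT against 0.648 and 0.615 RPKM in Phf2 KO.

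**Figure D3:**
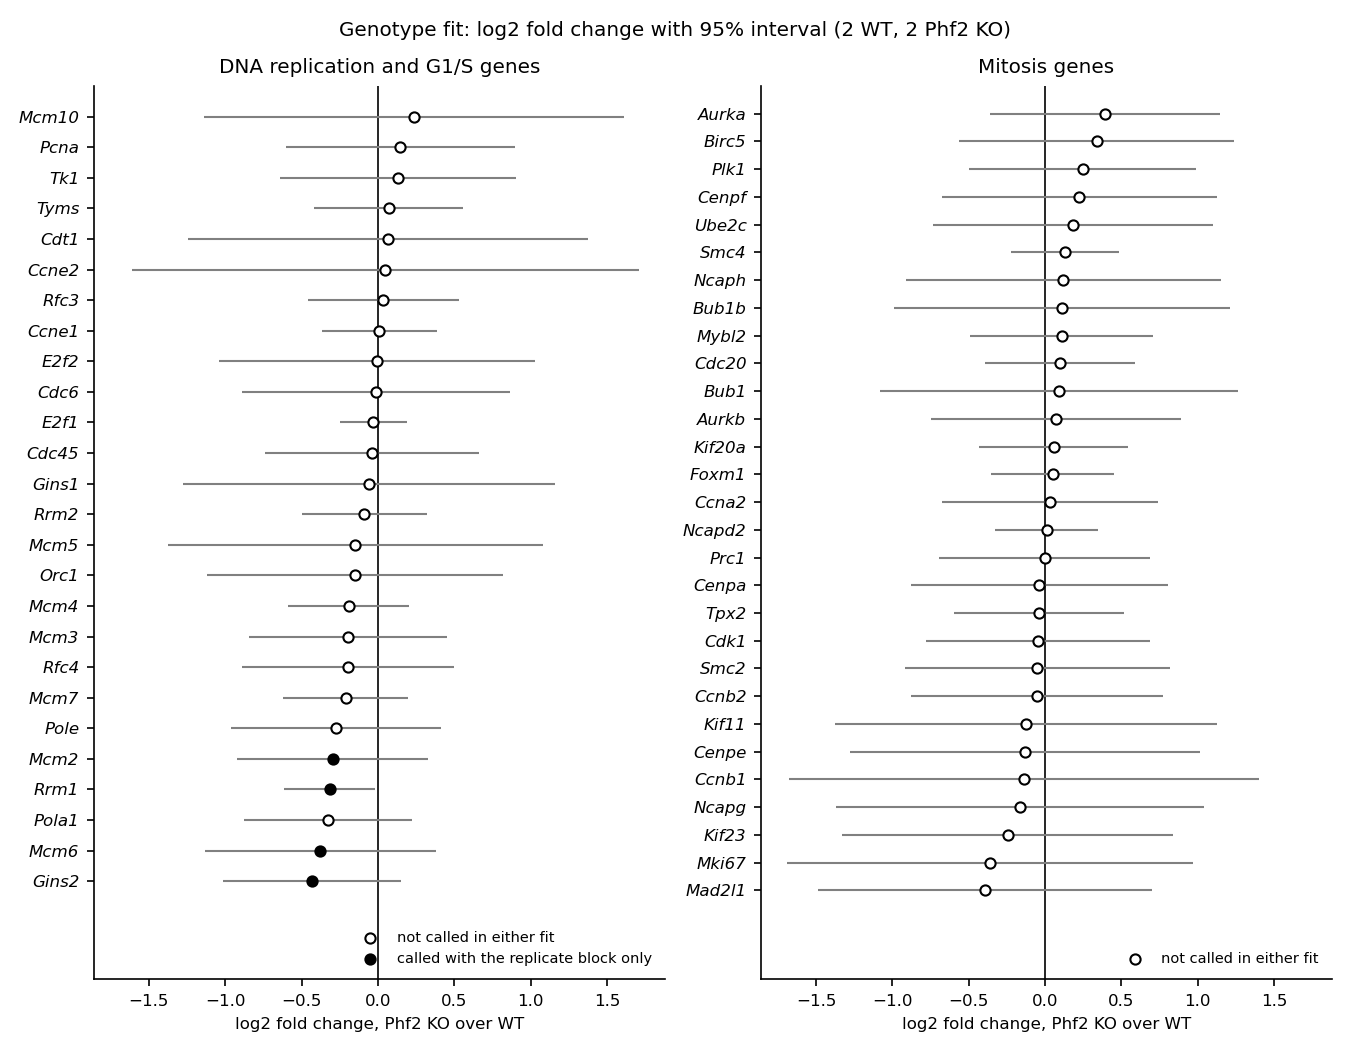
Log2 fold change of Phf2 KO over WT (x axis) with its 95% interval for each gene in edgeR's genotype fit of 2 WT and 2 Phf2 KO libraries. Filled points mark Gins2, Mcm6, Rrm1 and Mcm2, called only with the replicate number in the fit, and the interval of Rrm1 alone leaves out 0.

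In 11 of 26 replication genes and 22 of 29 mitosis genes the WT libraries lay on either side of both Phf2 KO libraries, an arrangement found in 17.0% of all genes. In 11 and 22 genes WT replicate 1 was the highest and WT replicate 2 the lowest library, beside 8.14% of all genes. WT replicate 1 was the highest of the 4 libraries in 20 of 26 and 22 of 29, beside 28.0% of all genes. This arrangement was chosen for counting after the values were seen. The summed level of the mitosis genes was 319 CPM in WT replicate 1, 276 in Phf2 KO replicate 1, 203 in WT replicate 2 and 247 in Phf2 KO replicate 2. For the replication genes it was 502, 433, 384 and 373 CPM in the same order. The largest and the smallest sum of the mitosis genes were thus both in WT. For replication the smallest sum was in Phf2 KO replicate 2, though near that of WT replicate 2.

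The change was then read within each replicate number, as the log2 ratio of Phf2 KO to WT at a pseudocount of 0.5 CPM, with 1 library a side and so no test. The median of the replication genes was -0.24 in number 1 and 0.13 in number 2, and that of the mitosis genes -0.13 and 0.36, beside 0.01 and 0.00 for all genes. In number 1, 23 of 26 replication genes and 23 of 29 mitosis genes were lower in Phf2 KO. In number 2, 17 of 26 and 29 of 29 were higher. A ratio negative in number 1 and positive in number 2 was seen in 15 of 26 replication genes and 23 of 29 mitosis genes, beside 17.9% of all genes. Beyond 0.3 in both of these directions were 2 replication genes (Ccne2 and Orc1) and 7 mitosis genes, beside 0.812% of all genes. Below -0.3 in both numbers was 1 replication gene, Gins2, and 0 mitosis genes, beside 3.89% of all genes, and above 0.3 in both 0 genes of either group, beside 2.97%. The ratio in number 2 was above that in number 1 in 21 of 26 and 27 of 29 genes, beside 47.3% of all genes. These counts restate the arrangement of the WT libraries above, from the same 4 values.

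Among the mitosis genes, Mad2l1 had a log2 ratio of -0.80 in number 1 and 0.26 in number 2, the lowest value of all 55 genes in number 1. The kinesin Kif11, which pushes spindle poles apart, had -0.55 and 0.54, and the condensin Smc2 had -0.51 and 0.51. Ccnb2 had -0.40 and 0.40, and Cdk1 -0.38 and 0.37, nearly equal in size and opposite in sign. All 6 genes of mitotic cyclins, Cdk1 and the anaphase-promoting complex, all 5 spindle motors and microtubule binding genes, all 3 checkpoint genes and all 3 centromere genes changed sign in this way. The 4 genes of mitotic kinases and Birc5 did not, since they were positive in both numbers, as Aurka was at 0.25 and 0.51. In number 1, however, Aurkb (0.01), Plk1 (0.04) and Birc5 (0.06) were close to 0. So were Bub1 (-0.02), Ube2c (-0.0048) and Cenpa (-0.06), which changed sign, so a sign near 0 does not set these roles apart. Smc4 and Mybl2 were positive in both numbers as well.

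Among the replication genes, 8 were lower in both numbers, a share close to the 30.2% of all genes. They were 4 of 6 helicase subunits (Mcm2, Mcm3, Mcm6 and Mcm7), Gins2, Rrm1, Pola1 and Rfc4. Rrm1 was at -0.33 and -0.30, Mcm2 at -0.27 and -0.32, and Gins2 at -0.46 and -0.33. Rrm1 and Mcm2 were thus lower by nearly the same ratio in both numbers, and Gins2 somewhat more in number 1. Mcm6, at -0.55 and -0.11, was lower mainly in number 1. All 3 licensing factors changed sign, Orc1 from -0.52 to 0.33 and Cdc6 from -0.27 to 0.31, with Cdt1 close to 0 in number 1. Ccne2, at -0.39 and 0.70, had the highest ratio of the replication genes in number 2. Pcna and Tk1 were positive in both numbers. No mitosis gene was lower in both numbers.

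**Figure D4:**
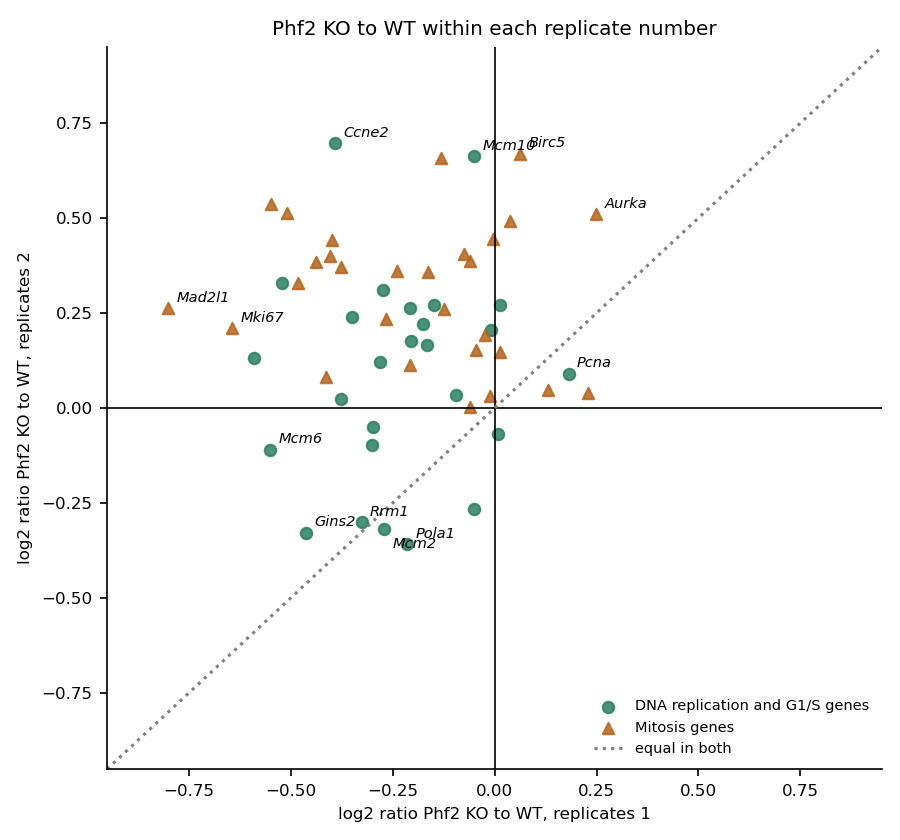
Log2 ratio of Phf2 KO to WT in replicates 1 (x axis) against that in replicates 2 (y axis), for 26 replication genes (circles) and 29 mitosis genes (triangles), with some genes named. All mitosis genes lie above 0 on the y axis and 23 of 29 left of 0 on the x axis. The lower left corner holds 8 replication genes and no mitosis gene, beside 30.2% of all genes.

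A fit with the replicate number as a term beside genotype (the replicate block) compares Phf2 KO with WT within the numbers. It leaves 1 residual degree of freedom, so its SEs and p-values rest mostly on a spread shared across genes. They do not measure the spread of each gene, as Mcm6 had log2 ratios of -0.55 and -0.11 in the numbers. The blocked fit called 4 of 26 replication genes lower and 0 higher, where 5.20% of all genes were called lower and 5.77% higher. These were Rrm1, at a log2 fold change of -0.32 ± 0.08 (SE) and an edgeR adjusted p of 0.00517, Mcm6 at -0.35 ± 0.11 (SE) and 0.0240, Mcm2 at -0.30 ± 0.10 (SE) and 0.0276, and Gins2 at -0.43 ± 0.17 (SE) and 0.0948. No mitosis gene was called, and the lowest edgeR adjusted p was 0.112, for Mki67 at -0.26 ± 0.10 (SE). Whether the numbers pair the libraries is not stated by the labels or the methods. DESeq2 with the same terms called none of the 4, with adjusted p-values of 0.205 for Rrm1, 0.511 for Mcm2 and 0.623 for Mcm6, and gave none for Gins2. The block also called 8 of 16 macrophage markers higher in Phf2 KO and 0 lower. Of 13 fibroblast markers it called 2 lower, Lum and Postn, each at a log2 fold change of -0.73, and 0 higher, and of 4 endothelial markers 1 lower, Kdr, at -0.60. The part of these markers in the results of the replication genes was not tested.

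Replicate number itself was compared in the same fit, as the cultures of number 2 over those of number 1. The libraries of a number were taken as independent, which is not known, since they may come from the same embryo. If they do, the SEs and p-values below are too small. The fit called 11 of 26 replication genes and 18 of 29 mitosis genes lower in replicate 2 and none higher. Of all genes, 13.6% were called lower and 12.6% higher. The median log2 difference was -0.35 for replication and -0.47 for mitosis. Mki67 had -0.99 ± 0.10 (SE), with an edgeR adjusted p of 2.15e-20, which is 1.99 times as much in replicate 1. Its counts were 1070 and 432 in WT replicates 1 and 2, against 585 and 465 in Phf2 KO. Mcm5 had -0.92 ± 0.13 (SE) (edgeR adjusted p = 5.55e-11), Cdt1 -1.02 ± 0.15 (SE) (edgeR adjusted p = 1.13e-10) and Pcna -0.58 ± 0.09 (SE) (edgeR adjusted p = 2.79e-09). Next among the mitosis genes were the checkpoint gene Bub1b at -0.81 ± 0.15 (SE) and the cytokinesis kinesin Kif23 at -0.79 ± 0.16 (SE). Among those not called were Ccne1, Rfc3, Tyms, Mybl2, Cdc20 and E2f1, which had -0.02 ± 0.09 (SE). A fit of replicate number without genotype called 4 of 26 replication and 5 of 29 mitosis genes lower, beside 7.33% of all genes.

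The difference between numbers was larger in WT than in Phf2 KO for most of these genes. As a log2 ratio of replicate 2 to replicate 1, the median of the replication genes was -0.52 in WT and -0.17 in Phf2 KO, and that of the mitosis genes -0.67 and -0.08, beside 0.02 and 0.00 for all genes. Mki67 had -1.39 in WT and -0.53 in Phf2 KO, and Kif11 -1.12 and -0.03. Pcna differed by a like amount in both groups, -0.53 and -0.62, as did Cdt1, -1.08 and -0.86. Mcm5, at -1.18 and -0.59, lay between these patterns. With 1 library for each genotype and number, the difference between the groups was not tested.

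The macrophage markers moved with replicate number too. All 16 of 16 tested were called lower in replicate 2, at a median log2 difference of -2.03, and their summed level was 4086 CPM in WT replicate 1, 4648 in Phf2 KO replicate 1, 894 in WT replicate 2 and 1405 in Phf2 KO replicate 2. Of the 17 markers on the list, Cx3cr1 was not tested and had between 1 and 8 counts. Of 10 endothelial markers 6 were too low to test, with Tie1 and Cldn5 at 0 in all libraries, and 2 of the other 4, Kdr and Vwf, were lower in replicate 2, while Erg was higher. The 13 fibroblast markers had a median difference of 0.02, with 1 called lower and 1 higher. The fall of the macrophage markers had a median of -2.23 in WT and -1.77 in Phf2 KO. Sex, macrophage content and the level of replication and mitosis genes all changed with replicate number here, their part in one another was not tested, and with 2 numbers they cannot be told apart.

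**Figure D5:**
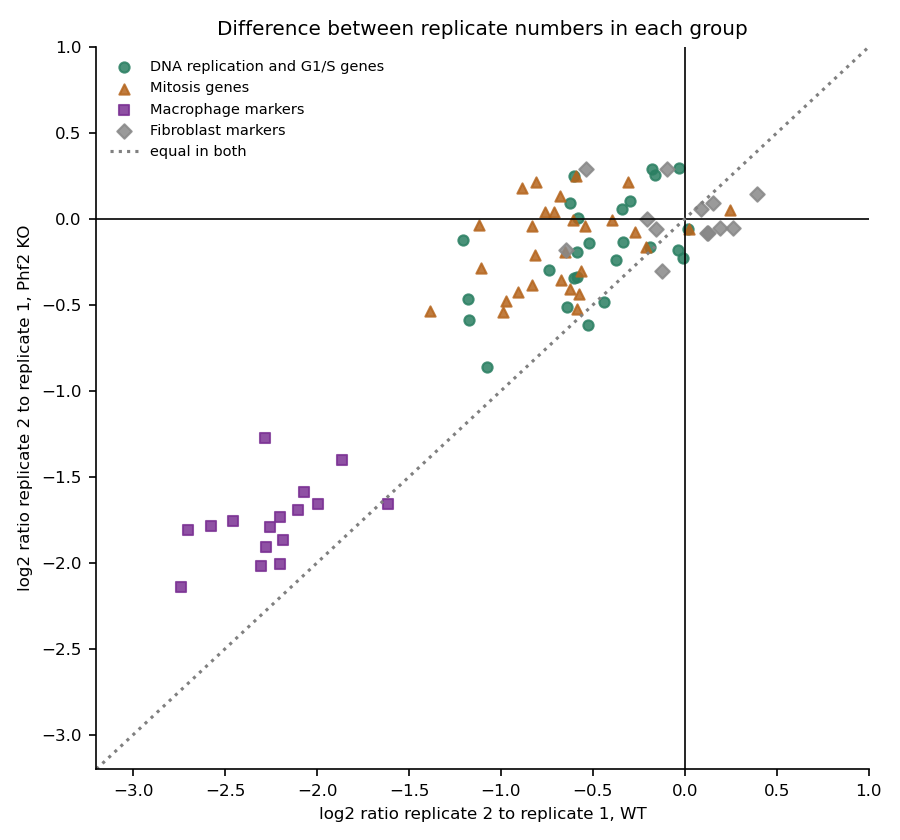
Log2 ratio of replicate 2 to replicate 1 in WT (x axis) and in Phf2 KO (y axis) for replication genes, mitosis genes, macrophage markers and fibroblast markers, with 1 point a gene and a dotted line of equal ratios. Macrophage markers lie far below 0 in both groups, while most replication and mitosis genes lie left of 0 and above the dotted line, at WT medians of -0.52 and -0.67 and Phf2 KO medians of -0.17 and -0.08.

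Other genes of both processes were read from lists of 51 replication and 62 mitosis genes, of which 51 and 61 were tested. The genotype fit called none of them, and at an unadjusted p under 0.05 edgeR had 0 of the first and 1 of the second, the kinetochore gene Cenpt, at 17.6 and 18.2 CPM in WT against 21.5 and 22.0 CPM in Phf2 KO. Their median log2 fold changes were -0.05 and 0.00. With the replicate block, 2 of 51 replication genes were called lower, Topbp1, a scaffold of replication start and checkpoint signalling, at -0.31 ± 0.09 (SE) (edgeR adjusted p = 0.0159), and Rfc5, a clamp loader subunit, at -0.40 ± 0.15 (SE) (edgeR adjusted p = 0.0852). Of the mitosis genes it called 1 lower, Oip5, which helps to place Cenpa at centromeres, at 1.29 and 0.886 CPM in WT against 0.627 and 0.416 CPM in Phf2 KO and a log2 fold change of -1.05 ± 0.39 (SE) (edgeR adjusted p = 0.0720). These shares lay under the 5.20% of all genes. The blocked changes of Cenpp (1.20 ± 0.53 (SE)) and Casc5 (-0.83 ± 0.54 (SE)) were, with that of Oip5, the 3 largest in size of the mitosis list, but rested on 3 to 16 counts and were not called. Of the replication list, E2f7 (0.55 ± 0.27 (SE)) and Exo1 (-0.46 ± 0.33 (SE)) had the largest blocked changes and were not called.

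Within the replicate numbers the wider mitosis list had medians of -0.18 in number 1 and 0.21 in number 2, and 41 of 61 genes negative in the first and positive in the second, beside 17.9% of all genes. The wider replication list had medians of -0.08 and 0.03, and 22 of 51 genes did so. Lower in replicate 2 were 13 of 51 replication genes, at a median of -0.15, and 22 of 61 mitosis genes, at a median of -0.37, beside 13.6% of all genes. The median log2 ratio of replicate 2 to replicate 1 was -0.24 in WT and -0.11 in Phf2 KO for the replication list, and -0.50 and -0.06 for the mitosis list. In both lists the medians lay further from 0 in WT than in Phf2 KO, and this difference was not tested.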

How the data were processed

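Primary MEFs were measured by RNA-seq in 2 WT and 2 Phf2 KO libraries of single reads of 50 nt. By the methods and the submitters' processing notes, Trim Galore was used by the authors for trimming and Bowtie2 against ribosomal RNA, and they aligned with STAR as reverse stranded to mm9 and counted with featureCounts. Versions, gene annotation and whether featureCounts used strand are not given in the sources used here. The deposited values are raw counts, without normalization. A deposited table of the authors' own DESeq2 comparison (mean over all libraries, fold changes, SE, statistic, p-values and direction) was not used.

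Samples were grouped by their titles. The test was edgeR 4.0.16 in R 4.3.3, with filterByExpr, TMM, glmQLFit and glmQLFTest on genotype, with Benjamini-Hochberg adjustment over 13668 genes and calls at 0.1. The test was tried on simulated data first. Total counts and the limit of 3 counts, which covers counting error only, are given with the results. RPKM used the longest coding transcript of GENCODE on NCBIM37 (mm9) and was set for 12968 genes. Promoters came from RefSeq (GRCm38.p6). Alternatives were the replicate block, DESeq2 1.42.0, limma 3.58.1 (voom), RLE or library size in place of TMM, other filters (at least 1 count, or 1 CPM in 2 libraries), a threshold of 0.05, pseudocounts of 0.1 and 2 CPM, a limit of 10 counts, and each library left out. DESeq2 with the block and RPKM over all exons were added after seeing the data. Figures used Python 3.11.15 and Matplotlib 3.10.9.

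Genes given in each library were the 6 highest by RPKM and the 5 with the largest fold change in each group, those called with or without the block, and those at or under 3 counts. From the other lists they were those called without the block and the 3 with the largest change with it, and further genes were named after their values were seen. The genes and lists were chosen with earlier results of these data known. Labels and methods do not say that numbers pair the libraries. As a hint from the data, log2 differences between replicates 1 and 2 in WT and in Phf2 KO correlated across 11556 genes (Pearson's r = 0.854, genes not being independent), and sex followed the number.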

Additional observations from a re-analysis of the deposited data

Results flagged for a closer look

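The change from WT to Phf2 KO had opposite signs in the replicate numbers. The median log2 ratio of the replication genes was -0.24 in number 1 and 0.13 in number 2, and that of the mitosis genes -0.13 and 0.36. They are set out because the same contrast points one way among the replicates 1 and the other way among the replicates 2. The difference was not tested, since each genotype and number has 1 library.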

How the results depend on the processing

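No gene of either group was called under any alternative to the genotype fit that kept genotype as its only term. With the replicate block, 4 replication genes, 2 of the other replication genes and 1 of the other mitosis genes were called lower, as were 711 of all genes, with 789 higher. DESeq2 with the block called 119 lower and 183 higher, DESeq2 on genotype 54 and 10. limma-voom, a threshold of 0.05 and each library left out gave 0 in place of the 1 gene called lower. The cause of these shifts was not tested.

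The medians rested on the WT libraries. With each library left out, the median log2 fold change ranged from -0.37 to 0.14 for replication and from -0.31 to 0.43 for mitosis, the lower ends without WT replicate 2 and the upper ends without WT replicate 1. Without Phf2 KO replicate 1 they were -0.18 and -0.03, and without Phf2 KO replicate 2 -0.07 and 0.08. Mcm6 went from -0.72 without WT replicate 2 to 0.06 without WT replicate 1, Mki67 from -0.92 to 0.53 and Rrm1 from -0.42 to -0.21. In these fits a lone library was assumed to vary like the other group. Another scaling, filter or pseudocount turned neither median.

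Without genotype in the fit, replicate number called 1002 genes lower in replicate 2 and 443 higher, with 4 replication and 5 mitosis genes lower. At a limit of 10 counts 1 gene, Ccnb1, was at the limit in a library. Over all exons the median level was 2.17 RPKM for replication and 1.85 RPKM for mitosis. Depth limits the lowest genes, as Ccnb1 rested on 10 counts in WT replicate 2.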
